A study of Mus musculus with 18 samples.

Results

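Resident macrophages are long-lived phagocytes that settle in a tissue during embryonic life, and 9 genes used to recognise them were followed here through mouse heart development. The genes were taken by symbol: Csf1r, Cx3cr1, C1qa, C1qb, C1qc, Mrc1, F13a1, Cd163 and Adgre1. Each symbol matched 1 of the 49315 Ensembl gene identifiers counted in all 18 libraries, and all 9 were among the 18885 genes tested, Cd163 because of its counts at E16.5. RNA was sequenced from hearts dissected from wild-type C57BL/6 embryos, with males and females pooled. Embryonic day 9.5 (E9.5) and E14.5 had 3 libraries each, while E10.5, E12.5 and E16.5 had 4 each, and nothing else differed between the groups in the labels. The hearts were not sorted, so every level below is that of a mixture of cardiac cells.

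As background, heart macrophages descend from yolk sac and fetal liver progenitors that reach the heart as it forms. Their survival depends on the receptor encoded by Csf1r, and their known work in the heart includes clearing dying cells and debris and shaping the coronary and lymphatic vessels. Of the other genes, Cx3cr1 encodes the receptor for the membrane-bound chemokine fractalkine. C1qa, C1qb and C1qc encode the chains of C1q, the recognition protein of the classical complement pathway. Mrc1 (CD206) and Cd163 encode scavenger receptors, for mannose-ended glycoproteins and for haemoglobin bound to haptoglobin. F13a1 encodes the A subunit of coagulation factor XIII, and Adgre1 encodes F4/80, the adhesion-type receptor most often used to stain mouse macrophages.

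Before the levels are given, a division among the libraries has to be stated, because libraries of the same stage differed in their reads of Chil3 and Mmp12. Chil3, which encodes a chitinase-like lectin, and Mmp12, the macrophage elastase, are made by activated and alveolar macrophages. Together they reached 197 to 445 CPM (counts scaled to the library total) in 13 libraries and had 0 counts in the other 5, with nothing in between. A sum of 10 CPM was used to divide them. The 5 libraries without these reads are called Chil3-negative below, and the 13 with them Chil3-positive (below and above the split in the plots). The Chil3-negative libraries were replicates 2 and 3 of E9.5, replicates 1 and 2 of E10.5 and replicate 4 of E12.5. Every E14.5 and E16.5 library was Chil3-positive, so changes after E12.5 could be followed in Chil3-positive libraries only. Totals ran from 30744015 to 45646538 counts per library, and a count of 3, the limit that a count of 0 allows, stood for 0.0657 to 0.0976 CPM.

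The positions are those of the GRCm38 build (GENCODE M21). Cx3cr1 spans chr9:119901616-120069879 on the minus strand. The 3 C1q genes are neighbours on the minus strand of chromosome 4, with C1qb at chr4:136880129-136886187, C1qc at chr4:136889804-136893065 and C1qa at chr4:136895917-136898803. Mrc1 lies at chr2:14229392-14332057 (plus), F13a1 at chr13:36867178-37050244 (minus), Cd163 at chr6:124304656-124330527 (plus) and Adgre1 at chr17:57358691-57483527 (plus). All are annotated as protein-coding. Opposite-strand genes share exon bases with 3 of them: Hmgxb3 with 15.1% of the Csf1r exon length, Gm33858 with 1.73% of Cx3cr1 and Gm30489 with 1.10% of F13a1. Without a stated strand setting, reads in those stretches cannot be assigned to 1 partner.

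Promoter sequence (250 bases before to 50 after the start, RefSeq, GRCm38.p6) was held for 6 of the genes, F13a1 with 2 starts. C1qb, C1qc and the second F13a1 start are shown as examples of promoters that hold the word described next, from genes that rose between E10.5 and E12.5. Cx3cr1 rose at the same step and its promoter, like that of Cd163, holds none. Capitals mark GAGGAA or its reverse complement TTCCTC, the purine-rich core of the sites bound by PU.1, the ETS-family factor of macrophage genes. Each is printed 5′ to 3′ on the strand of its gene, which is the minus strand in all of them.
C1qb, chr4:136886151-136886450: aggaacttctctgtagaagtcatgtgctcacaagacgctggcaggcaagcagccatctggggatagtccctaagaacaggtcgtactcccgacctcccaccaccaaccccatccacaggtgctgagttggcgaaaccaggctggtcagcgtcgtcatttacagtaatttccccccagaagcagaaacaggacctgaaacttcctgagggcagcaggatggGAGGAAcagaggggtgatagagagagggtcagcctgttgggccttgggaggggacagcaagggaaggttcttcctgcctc
C1qc, chr4:136892865-136893164: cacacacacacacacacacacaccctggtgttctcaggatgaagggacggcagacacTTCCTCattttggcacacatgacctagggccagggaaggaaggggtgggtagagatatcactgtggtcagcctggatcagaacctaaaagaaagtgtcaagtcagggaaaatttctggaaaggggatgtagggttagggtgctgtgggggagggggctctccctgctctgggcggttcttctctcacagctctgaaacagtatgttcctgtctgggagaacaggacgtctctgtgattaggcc
F13a1, chr13:37049164-37049463: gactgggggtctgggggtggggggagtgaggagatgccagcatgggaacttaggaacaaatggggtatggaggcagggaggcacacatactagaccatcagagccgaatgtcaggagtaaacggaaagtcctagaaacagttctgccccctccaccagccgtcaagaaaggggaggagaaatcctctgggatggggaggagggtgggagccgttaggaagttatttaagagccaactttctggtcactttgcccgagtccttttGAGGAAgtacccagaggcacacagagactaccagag
C1qb holds the word as GAGGAA a short way upstream of the start, C1qc as TTCCTC far upstream, and F13a1 just after its start. Searched on both strands, GAGGAA was found in 5 of the 7 promoters, those of Mrc1, C1qb, C1qc and both of F13a1, and in 28.3% of 32851 mouse promoters of the same length. The longer word GAGGAAGT, which contains it, was found in C1qc and in the second F13a1 promoter and in 3.20% of all. TGACTCA, the AP-1 word, was in 5.20% of all promoters and in none of the 7. A match describes letters only.

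Levels below are CPM after scaling by the trimmed mean of M-values (TMM). Changes between stages are log2 fold changes ± standard error from edgeR's quasi-likelihood test on all libraries, with p-values adjusted over all genes by the Benjamini-Hochberg method and called at an adjusted p under 0.05. The labels do not say whether libraries came from separate litters, so these p-values measure the spread between libraries. In unsorted hearts, more macrophages and more RNA per macrophage cannot be told apart.

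**Figure D1:**
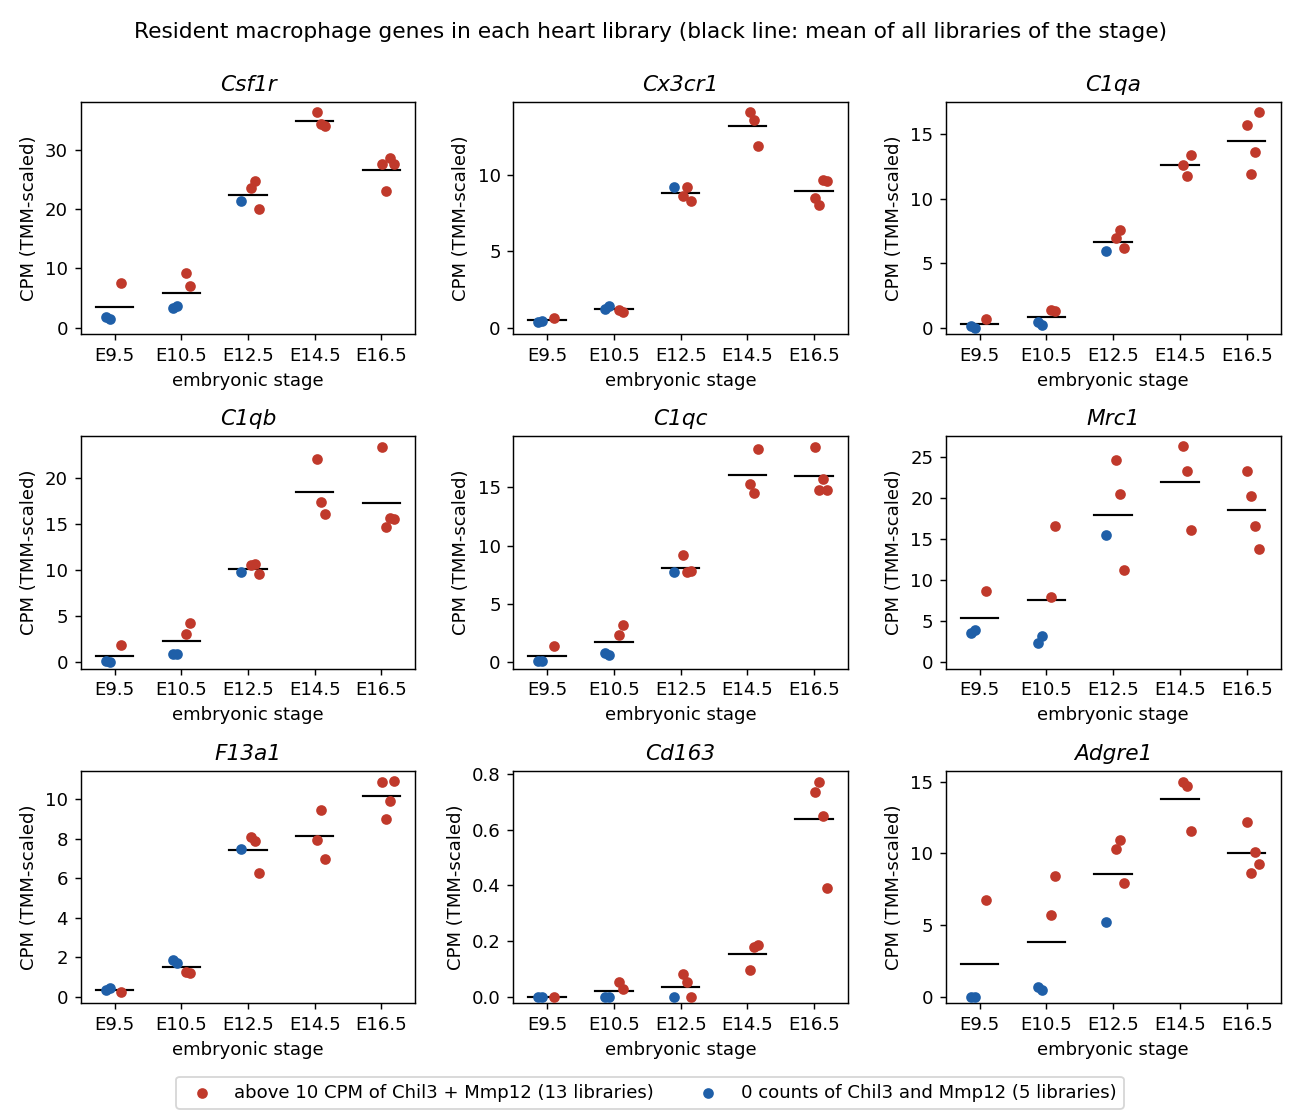
Level of each gene (CPM, TMM-scaled, linear axis) in every library by stage; red points are the 13 Chil3-positive libraries, blue points the 5 Chil3-negative ones, and the black line is the mean of all libraries of the stage. Chil3-negative libraries lie lowest for Adgre1 at the 3 stages that have them, while for Cx3cr1 and F13a1 the colours lie close together throughout.

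Csf1r, the receptor that macrophages need to survive, was low in the early heart and highest at E14.5. At E9.5 it stood at 7.46 CPM in the Chil3-positive replicate 1 and at 1.75 and 1.43 CPM in the Chil3-negative replicates 2 and 3. At E10.5 the Chil3-negative replicates 1 and 2 gave 3.29 and 3.58 CPM and the Chil3-positive replicates 3 and 4 gave 9.30 and 7.004 CPM. The Chil3-positive libraries were the high ones at both stages, and the E9.5 and E10.5 values overlapped. At E12.5 replicates 1 to 4 gave 23.6, 24.9, 20.1 and 21.4 CPM, the last of them Chil3-negative and inside the range of the others. E14.5 libraries gave 36.4, 34.4 and 34.1 CPM, above every library of another stage, and E16.5 libraries gave 27.6, 23.1, 28.6 and 27.6 CPM. From E10.5 to E12.5 Csf1r rose by 1.96 ± 0.41 (edgeR adjusted p = 0.00163), with no overlap between the stages. The difference between E9.5 and E10.5 was 0.69 ± 0.47 (edgeR adjusted p = 0.369).

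Within the Chil3-negative libraries alone the early change of Csf1r was larger against its error. It rose by 1.13 ± 0.18 from E9.5 to E10.5 (edgeR adjusted p = 0.00034) and by 2.64 ± 0.16 from E10.5 to E12.5 (edgeR adjusted p = 1.03e-07). The Chil3-negative E12.5 group is 1 library, as is the Chil3-positive E9.5 group, so every test on them takes its spread from the other stages. Within the Chil3-positive libraries the first step was 0.13 ± 0.18 (edgeR adjusted p = 0.738) and the second a rise of 1.48 ± 0.13 (edgeR adjusted p = 1.53e-07). The later steps could be seen in the Chil3-positive libraries only: Csf1r rose by 0.62 ± 0.11 from E12.5 to E14.5 (edgeR adjusted p = 0.000699) and fell by 0.39 ± 0.10 to E16.5 (edgeR adjusted p = 0.00939). With all 18 libraries in the fit neither of those steps was called (adjusted p = 0.349 and 0.559, edgeR), where the spread is estimated over Chil3-negative and Chil3-positive libraries together.

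Cx3cr1, the fractalkine receptor, went up at each step to E14.5 and down to E16.5. It stood at 0.634, 0.357 and 0.399 CPM in E9.5 replicates 1 to 3, from 11 to 21 counts each. E10.5 libraries gave 1.19, 1.40, 1.14 and 1.02 CPM, E12.5 libraries 8.61, 9.16, 8.24 and 9.19 CPM. E14.5 libraries gave 14.1, 13.6 and 11.9 CPM and E16.5 libraries 8.45, 8.03, 9.66 and 9.61 CPM. No E10.5 library overlapped E9.5 or E12.5, and the E14.5 libraries stood above all others. Cx3cr1 rose by 1.35 ± 0.19 to E10.5 (edgeR adjusted p = 3.84e-05), by 2.88 ± 0.14 to E12.5 (edgeR adjusted p = 2.09e-11) and by 0.58 ± 0.13 to E14.5 (edgeR adjusted p = 0.00566), and fell by 0.56 ± 0.14 to E16.5 (edgeR adjusted p = 0.00637). Of these calls, the first was lost in the Chil3-positive libraries alone, at 0.77 ± 0.30 with 1 library at E9.5 (edgeR adjusted p = 0.151).

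The C1q genes encode the chains of 1 protein, and they moved together. C1qa stood at 0.634 CPM in E9.5 replicate 1, with 3 counts in replicate 2 and 0 in replicate 3. E10.5 libraries gave 0.420 and 0.216 CPM (Chil3-negative) and 1.33 and 1.31 CPM (Chil3-positive), and E12.5 libraries gave 6.97, 7.60, 6.15 and 5.97 CPM. E14.5 libraries gave 12.6, 11.7 and 13.4 CPM and E16.5 libraries 15.7, 11.9, 13.6 and 16.7 CPM. At E9.5 and E10.5 every Chil3-positive library was above every Chil3-negative one, and the E14.5 and E16.5 values overlapped.

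C1qb stood at 1.87, 0.0974 and 0.0332 CPM in E9.5 replicates 1 to 3 and at 0.906, 0.842, 3.10 and 4.25 CPM in E10.5 replicates 1 to 4. E12.5 libraries gave 10.53, 10.7, 9.56 and 9.74 CPM, a narrow range in which the Chil3-negative replicate 4 was the third highest. E14.5 libraries gave 22.02, 17.4 and 16.1 CPM and E16.5 libraries 23.4, 14.7, 15.6 and 15.6 CPM. Replicate 1 of E16.5 stood above the other 3 libraries of its stage.

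C1qc stood at 1.39, 0.0649 and 0.0664 CPM at E9.5 and at 0.773, 0.601, 2.33 and 3.23 CPM at E10.5. E12.5 libraries gave 9.19, 7.76, 7.79 and 7.76 CPM, E14.5 libraries 15.3, 14.496 and 18.3 CPM and E16.5 libraries 18.5, 14.8, 15.8 and 14.8 CPM. For all 3 genes no E12.5 library overlapped E10.5, and no E14.5 library overlapped E12.5.

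From E10.5 to E12.5 C1qa rose by 3.04 ± 0.49 (edgeR adjusted p = 0.000174), C1qb by 2.17 ± 0.59 (edgeR adjusted p = 0.0101) and C1qc by 2.24 ± 0.54 (edgeR adjusted p = 0.00473). Between E9.5 and E10.5 the differences of 1.66, 1.70 and 1.71 were not called (adjusted p = 0.131, 0.163 and 0.133, edgeR). Within the Chil3-negative libraries the E9.5 counts were very low, with 3, 4 and 4 counts in all for C1qa, C1qb and C1qc. The ratio of E10.5 to E9.5 there was 6.55 for C1qa (95% counting interval 2.02 to 33.7), 13.3 for C1qb (4.998 to 50.2) and 10.53 for C1qc (3.90 to 39.9), and all 3 were called (adjusted p = 0.0201, 7.49e-05 and 0.000197, edgeR). These exact intervals cover counting error only. Within the Chil3-positive libraries the 3 genes rose by 0.86 ± 0.14, 0.85 ± 0.17 and 0.96 ± 0.14 from E12.5 to E14.5 (adjusted p = 0.000218, 0.00257 and 7.81e-05, edgeR). From E14.5 to E16.5 they differed by 0.20 ± 0.12, -0.09 ± 0.16 and -0.01 ± 0.12, none of them called (adjusted p = 0.254, 0.705 and 0.984, edgeR).

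Mrc1, the mannose receptor, was the most abundant of the 9 genes by CPM in Chil3-negative E9.5 hearts and had no separated step between stages. It stood at 8.67, 3.51 and 3.92 CPM at E9.5 and at 2.36, 3.18, 7.95 and 16.6 CPM at E10.5. E12.5 libraries gave 24.7, 20.5, 11.2 and 15.5 CPM, E14.5 libraries 26.3, 23.3 and 16.1 CPM and E16.5 libraries 23.3, 20.3, 16.6 and 13.8 CPM. Values of neighbouring stages overlapped at every step. The step from E10.5 to E12.5 was 1.26 ± 0.51 (edgeR adjusted p = 0.0679). Without replicate 4 of E10.5, the highest library of that stage, it was called at 2.01 (edgeR adjusted p = 0.00366). Within the Chil3-negative libraries Mrc1 differed by -0.40 ± 0.18 from E9.5 to E10.5 (edgeR adjusted p = 0.102) and then rose by 2.49 ± 0.18 to the 1 E12.5 library (edgeR adjusted p = 6.46e-07). The difference of 1.78 ± 0.59 between E9.5 and E16.5 was called (edgeR adjusted p = 0.0161), but not without replicate 2 (adjusted p = 0.0668) or replicate 3 of E9.5 (adjusted p = 0.0647), nor within the Chil3-positive libraries (adjusted p = 0.140, edgeR).

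F13a1, the factor XIII A subunit, started from very little and had its highest mean at E16.5. E9.5 libraries held 7, 11 and 13 counts, or 0.211, 0.357 and 0.432 CPM. E10.5 libraries gave 1.86, 1.68, 1.25 and 1.18 CPM, and E12.5 libraries 8.09, 7.87, 6.29 and 7.47 CPM. E14.5 libraries gave 7.96, 9.46 and 6.98 CPM and E16.5 libraries 10.9, 9.02, 9.93 and 10.9 CPM. At E9.5 and E10.5 the Chil3-positive libraries were the low ones, the opposite of Csf1r and C1q. F13a1 rose by 2.17 ± 0.24 to E10.5 (edgeR adjusted p = 3.1e-06) and by 2.31 ± 0.17 to E12.5 (edgeR adjusted p = 5.86e-09), and both steps were also called within each kind of library. The later steps of 0.13 ± 0.17 and 0.32 ± 0.17 were not called (adjusted p = 0.683 and 0.208, edgeR), and values of E12.5, E14.5 and E16.5 overlapped from one stage to the next.

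Cd163, the haemoglobin scavenger receptor, appeared last. It had 0 counts in all 3 E9.5 libraries and in all 5 Chil3-negative libraries, at most 3 counts in any library of E10.5 or E12.5, and 4, 8 and 6 counts at E14.5. E16.5 libraries held 23, 26, 21 and 12 counts, or 0.736, 0.774, 0.648 and 0.391 CPM, above every earlier library. E16.5 was at least 20.1-fold higher than E9.5, taking 3 counts over the 3 E9.5 libraries as the floor. Against E14.5 the rise was 2.04 ± 0.58 (edgeR adjusted p = 0.0206). That call was lost without replicate 1 of E14.5 (adjusted p = 0.109) and without replicate 2 (adjusted p = 0.0657), and since Cd163 was tested only because of its E16.5 counts, the value is given as a description.

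Adgre1, which encodes F4/80, differed most between the kinds of library. It had 0 counts in both Chil3-negative E9.5 libraries and 224 counts, or 6.76 CPM, in the Chil3-positive one, which was at least 137-fold higher. E10.5 libraries gave 0.663 and 0.481 CPM (Chil3-negative) and 5.73 and 8.45 CPM (Chil3-positive). E12.5 libraries gave 10.3, 10.9 and 7.95 CPM (Chil3-positive) and 5.17 CPM (Chil3-negative). E14.5 libraries gave 15.0, 14.7 and 11.6 CPM and E16.5 libraries 12.2, 8.599, 10.1 and 9.28 CPM. With all libraries no step between neighbouring stages was called, the differences being 0.73, 1.17, 0.68 and -0.46 (adjusted p = 0.741, 0.385, 0.739 and 0.806, edgeR). Within the Chil3-negative libraries Adgre1 was at least 11.7-fold higher at E10.5 than at E9.5, and rose by 3.17 ± 0.31 from E10.5 to the 1 E12.5 library (edgeR adjusted p = 1.37e-05). Within the Chil3-positive libraries it rose by 0.51 ± 0.17 to E14.5 (edgeR adjusted p = 0.0454) and fell by 0.46 ± 0.15 to E16.5 (edgeR adjusted p = 0.0388). Chil3 plus Mmp12 in those libraries ran from 199 to 430 CPM at E12.5, 271 to 445 CPM at E14.5 and 197 to 360 CPM at E16.5. The part of that difference in these 2 steps of Adgre1 was not tested. The difference between E9.5 and E16.5, 2.13 ± 1.16, was not called (edgeR adjusted p = 0.124), but it was called without replicate 1 of E9.5 (edgeR adjusted p = 0.00124). That call sets 0 counts in Chil3-negative E9.5 libraries against Chil3-positive E16.5 libraries, so stage and kind of library cannot be told apart in it.

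Counted over the 9 genes, the step from E10.5 to E12.5 had the most rises with all libraries, while in Chil3-positive libraries it tied with the step from E12.5 to E14.5. Between E9.5 and E10.5, 2 of 9 rose (Cx3cr1 and F13a1), where 10.6% of all genes tested rose. In the Chil3-positive libraries 2 rose (C1qc and F13a1), against 4.93% of all genes. In the Chil3-negative libraries 7 of the 8 genes tested rose, all but Mrc1, against 19.4% of all genes. Leaving out replicate 1 of E9.5, the Chil3-positive library of that stage, likewise gave 7 rises. That fit set Chil3-negative E9.5 libraries against E10.5 libraries of both kinds. From E10.5 to E12.5, 6 rose with all libraries (Csf1r, Cx3cr1, F13a1 and the C1q genes) against 20.0% of all genes. In the Chil3-positive libraries 6 rose against 15.0%. In the Chil3-negative ones 8 of 8 were called higher against 17.0%, with 1 library at E12.5 that is assumed to vary like those of E9.5 and E10.5. The median change of the 9 genes with all libraries was 2.17 at this step, and that of all genes 0.01.

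From E12.5 to E14.5, 1 gene rose with all libraries (Cx3cr1), against 6.29% of all genes, and 6 rose in the Chil3-positive libraries, against 7.30%. With all 18 libraries and the kind of library as a term in the fit, 1 of 9 rose at this step, where 1596 of 18885 genes rose. In that fit 7 of 9 rose from E10.5 to E12.5, where 4045 genes rose, so the tie was seen in the Chil3-positive libraries only. Cd163 is left out of the counts that follow, since its E16.5 counts alone put it among the genes tested. From E14.5 to E16.5 Cx3cr1 fell, where 10.1% of all genes rose and 8.74% fell. In the Chil3-positive libraries Csf1r, Cx3cr1 and Adgre1 fell, where 9.83% of all genes fell and 12.8% rose. Over the whole interval from E9.5 to E16.5, 7 of the 8 rose, all but Adgre1, against 32.1% of all genes. In the Chil3-positive libraries 6 of the 8 rose, all but Mrc1 and Adgre1, against 26.5%. Without replicate 1 of E9.5 the whole-interval differences were larger, at 4.07 in place of 2.90 for Csf1r and 8.11 in place of 5.82 for C1qa. For C1qb the value was 7.98 in place of 4.65 and for C1qc 7.86 in place of 4.92. In that fit the E9.5 libraries were all Chil3-negative and the E16.5 ones all Chil3-positive, so stage and kind of library cannot be told apart. C1qa, C1qb and C1qc had 3, 4 and 4 counts in all over those E9.5 libraries.

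**Figure D2:**
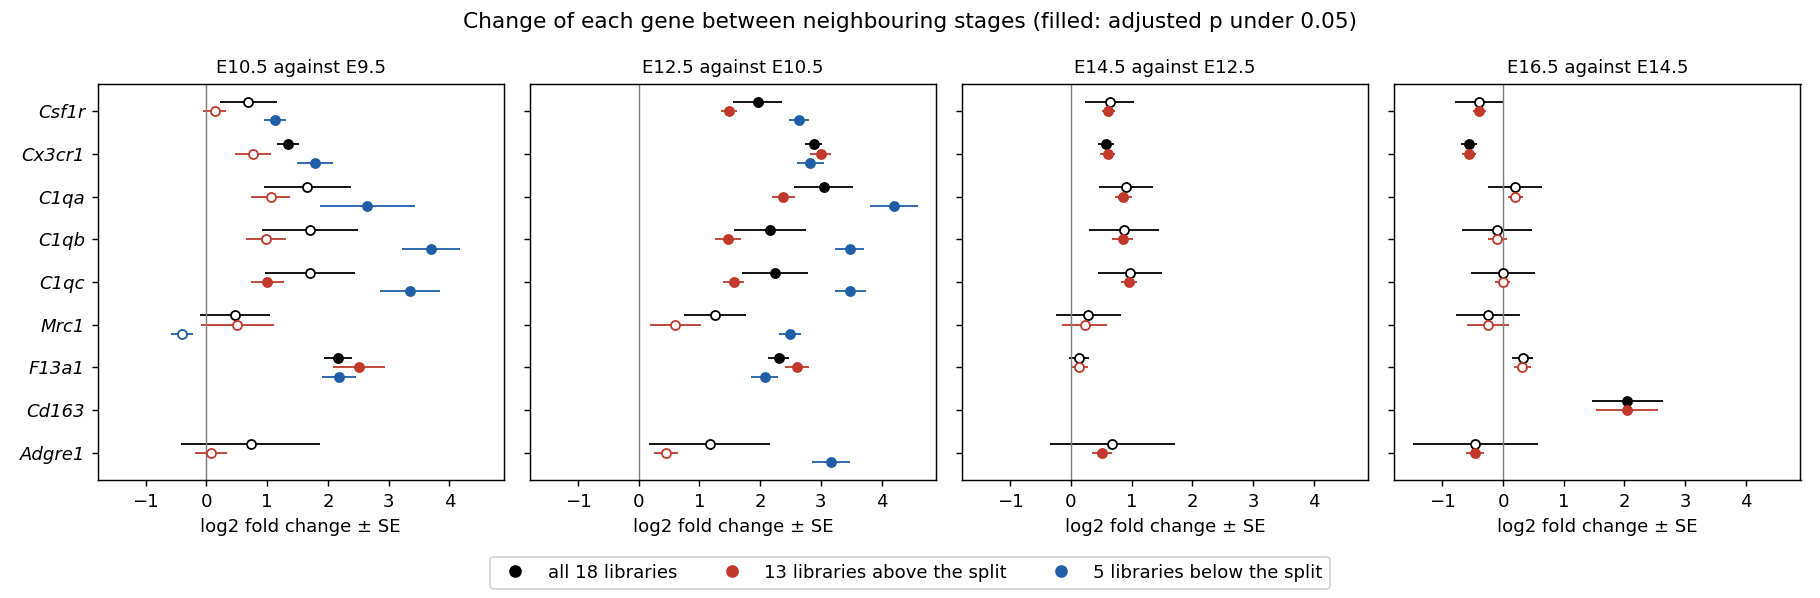
Log2 fold change ± standard error of each gene between neighbouring stages, with all libraries (black), the Chil3-positive libraries (red) and the Chil3-negative libraries (blue); filled points had an adjusted p under 0.05. The Chil3-negative libraries give the largest early changes of Csf1r and the C1q genes, the 3 estimates of Cx3cr1 and F13a1 lie closer together, and steps from a stage with 0 or nearly 0 counts (Cd163 before E16.5, Adgre1 in Chil3-negative E9.5 libraries) are not drawn.

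The 2 kinds of library were then compared with stage in the model. Of the 9 genes, 6 were higher in Chil3-positive libraries, where 11.6% of all genes were higher. Adgre1 differed most, at 2.66 ± 0.56 (edgeR adjusted p = 0.00504), and Csf1r differed by 0.97 ± 0.24 (edgeR adjusted p = 0.0107). Mrc1 was higher by 1.197 ± 0.35, C1qb by 1.22 ± 0.40, C1qc by 1.15 ± 0.36 and C1qa by 0.996 ± 0.32 (adjusted p = 0.0280, 0.0465, 0.0344 and 0.0338, edgeR). Cx3cr1 differed by -0.05 ± 0.13 and F13a1 by -0.32 ± 0.15, neither of them called (adjusted p = 0.851 and 0.191, edgeR). Cd163 had no count in a Chil3-negative library, and a fold change is not given.

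The calls for Adgre1 and Csf1r held in every alternative fit and with every library left out in turn, while those for Mrc1 and the C1q genes did not. Using the 11 libraries of the stages that hold both kinds left 2 calls. Leaving out replicate 1 of E9.5, replicate 1 of E10.5 or replicate 2 of E10.5 left 2 calls, leaving out replicate 2 of E9.5 or replicate 3 or 4 of E10.5 left 3, and leaving out replicate 3 of E9.5 left 4. Leaving out replicate 1 of E12.5, any E14.5 library or replicate 2, 3 or 4 of E16.5 left 5. With limma-voom 4 were called. Without the Chil3-negative E12.5 library (replicate 4) the differences were larger, at 4.41 for Adgre1, 1.59 for Csf1r, 2.31, 2.51 and 2.40 for C1qa, C1qb and C1qc and 1.79 for Mrc1, and F13a1 was lower in Chil3-positive libraries by 0.60 (edgeR adjusted p = 0.0442). Without replicate 1 of E9.5 the Adgre1 difference was 2.07.

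Set against the amount of Chil3 and Mmp12, the 9 genes fell into different ranges. Adgre1 stood 1.33 to 2.26 CPM above the Chil3-negative mean of its stage for each 100 CPM of Chil3 plus Mmp12, over the 6 Chil3-positive libraries of E9.5, E10.5 and E12.5. The same quantity ran from 0.0930 to 0.398 CPM for C1qa, which was also above 0 in all 6. It ran from -0.476 to 0.0612 CPM for Cx3cr1 and from -0.595 to 0.246 CPM for F13a1. Csf1r ran from -0.675 to 2.08 CPM and Mrc1 from -2.17 to 3.98 CPM, and for both the lowest value was that of E12.5 replicate 3, the only E12.5 library below the Chil3-negative one. These values restate the difference between the kinds of library per unit of the markers that defined them. The part of those markers' source in the level of Adgre1 at E14.5 and E16.5 was not tested.

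**Figure D3:**
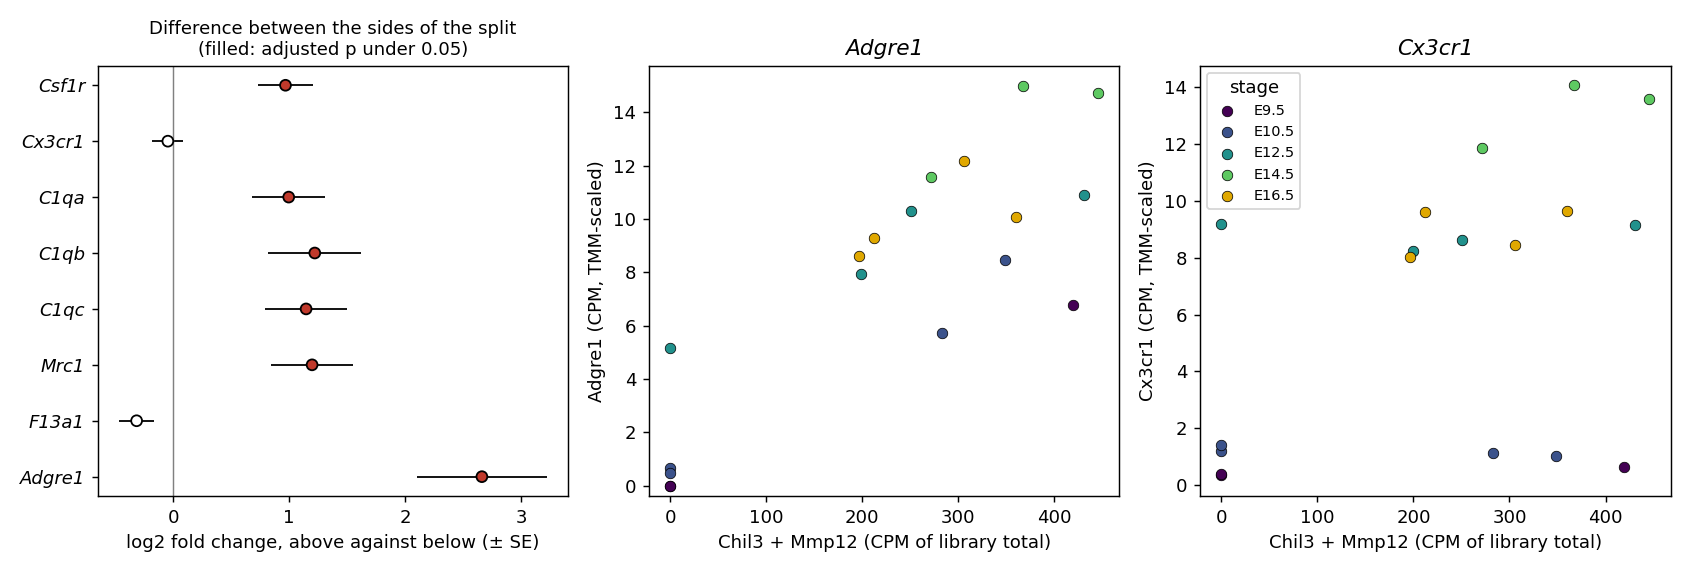
Left, log2 fold change ± standard error of Chil3-positive against Chil3-negative libraries with stage in the model (filled: adjusted p under 0.05; Cd163, at 0 in every Chil3-negative library, is left out); middle and right, Adgre1 and Cx3cr1 (CPM, TMM-scaled) against Chil3 plus Mmp12 (CPM of the library total) in each library, coloured by stage. Within each stage that has both kinds of library, Adgre1 is higher in the libraries on the right, while Cx3cr1 at E10.5 and E12.5 is not.

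Whether the difference between kinds of library varied with stage was tested after these values had been seen. With 1 Chil3-positive library at E9.5 and 1 Chil3-negative library at E12.5, the values describe those libraries. The shares of all genes given next count changes in either direction. The log2 difference was smaller at E12.5 than at E9.5 for 4 of the 8 genes tested in the 11 libraries of shared stages, Csf1r, C1qb, C1qc and Adgre1, where 0.334% of all genes had such a change. For Csf1r it was 2.22 at E9.5 and 0.08 at E12.5, a change of -2.14 (edgeR adjusted p = 0.00494). For C1qb the change was -4.69 (edgeR adjusted p = 0.0017) and for C1qc -4.25 (edgeR adjusted p = 0.00439). From E10.5 to E12.5 the change was called for C1qb (-2.00) and Adgre1 (-2.72), both with an adjusted p of 0.0440 (edgeR), where 0.0219% of all genes had one. From E9.5 to E10.5 it was called for Adgre1 alone, where 0.433% of all genes had one, and Adgre1 had 0 counts in Chil3-negative E9.5 libraries. In CPM the excess of Csf1r in Chil3-positive libraries was 5.87 at E9.5, 4.72 at E10.5 and 1.42 at E12.5, and that of Adgre1 6.76, 6.51 and 4.54.

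Summed over the 9 genes, Chil3-negative libraries held 6.23 and 6.28 CPM at E9.5, 11.5 and 11.98 CPM at E10.5 and 82.2 CPM at E12.5. Chil3-positive libraries held 27.6 CPM at E9.5, 32.2 and 43.1 CPM at E10.5 and 77.3 to 102 CPM at E12.5, a range that includes the Chil3-negative library. They held 129 to 150 CPM at E14.5 and 111 to 141 CPM at E16.5.

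Levels of different genes were compared as CPM per kilobase of annotated exon, since the genes differ in length from 1040 bases (C1qa) to 6739 bases (F13a1). In Chil3-negative libraries at E9.5 Mrc1 was highest, at 0.583 CPM per kb, followed by Csf1r at 0.275, and the C1q genes were at 0.0340 to 0.0600. By E12.5 the Chil3-negative library had C1qb highest, at 8.95 CPM per kb, then C1qa at 5.74, C1qc at 4.02 and Csf1r at 3.71, with Mrc1 at 2.44. At E16.5 the order of mean levels per kb was C1qb at 15.9 ± 3.7, C1qa at 13.9 ± 2.1, C1qc at 8.27 ± 0.90, Csf1r at 4.63 ± 0.43, Adgre1 at 3.10 ± 0.48, Mrc1 at 2.90 ± 0.66, Cx3cr1 at 1.98 ± 0.18, F13a1 at 1.51 ± 0.13 and Cd163 at 0.117 ± 0.032 (SD, n = 4). C1qb and C1qa, and Adgre1 and Mrc1, differed by less than their spread at E16.5. With 3 to 4 counts per C1q gene in those E9.5 libraries, the order of the C1q genes among themselves and against Cx3cr1 is not resolved there, and each of them was below Mrc1 and Csf1r in both libraries. C1qb and C1qa led at E12.5 and E16.5.

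**Figure D4:**
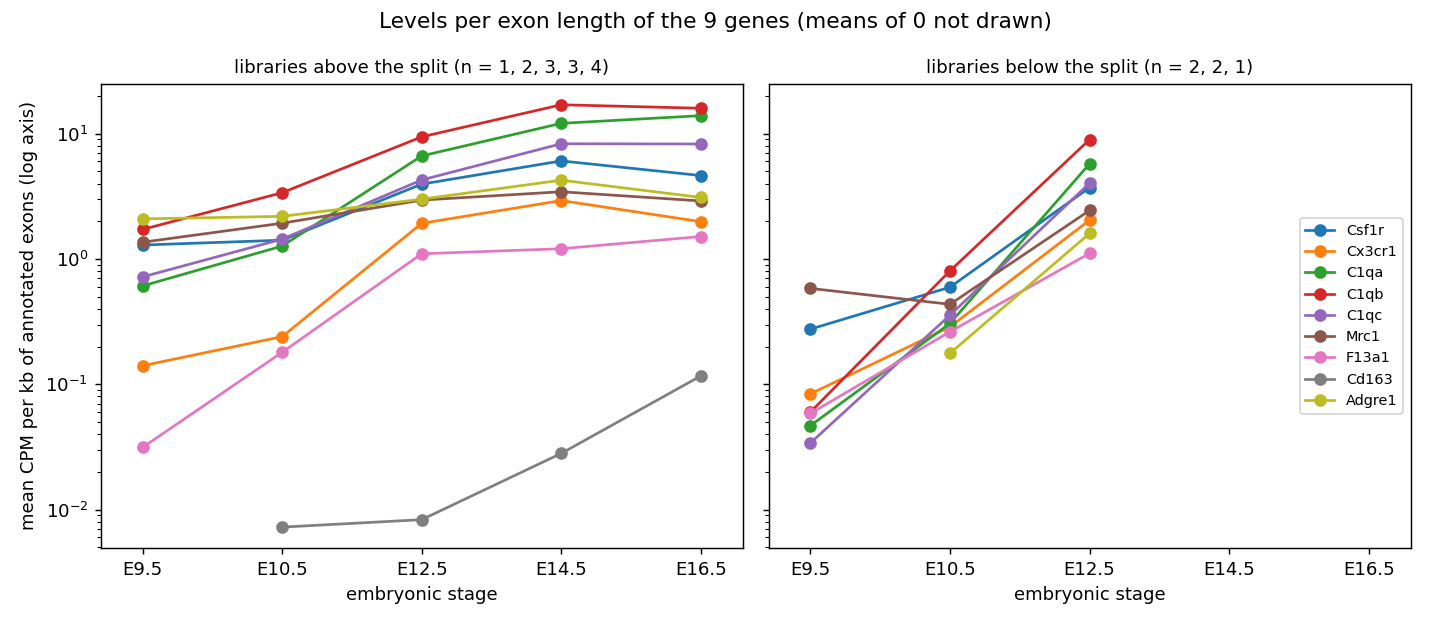
Mean level per exon length (CPM per kb, log axis) of the 9 genes by stage in Chil3-positive (left) and Chil3-negative (right) libraries; means of 0 are not drawn and Chil3-negative libraries exist to E12.5 only. In Chil3-negative libraries Mrc1 leads at E9.5 and C1qb leads at E10.5 and E12.5, while Cx3cr1 and F13a1 go up in both panels.

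Across the 13 Chil3-positive libraries the log2 levels of the C1q genes followed each other closely, with Pearson r of 0.980 for C1qa and C1qb, 0.988 for C1qa and C1qc and 0.987 for C1qb and C1qc. Csf1r and Cx3cr1 had an r of 0.981. Mrc1 was closest to Adgre1, at 0.869, and stood at 0.676 with Csf1r, while Cd163 was below 0.74 with every other member. These libraries span all 5 stages and differ in depth, so each r includes the common change between stages and describes these libraries only. Of 13416 protein-coding genes with a mean of at least 1 CPM, the 5 most like the mean of the 9 genes over all 18 libraries were Grn (r = 0.986), Anpep (0.985), Ifi27 (0.984), Pcdh20 (0.984) and Lgi3 (0.983). Grn, which encodes progranulin, went from a mean of 69.6 CPM at E9.5 to 195 CPM at E14.5 and 184 CPM at E16.5. Over the Chil3-positive libraries they were Dhrs3 (0.987), Islr (0.986), Cd1d1 (0.984), Cbx6 (0.983) and Cfap69 (0.982), none of them in the first group.

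The upstream signals were measured in the same libraries. Csf1, the main ligand of Csf1r, stood at 10.9 to 13.9 CPM at E9.5 and at 21.4 to 26.7 CPM in every library of E10.5, E12.5 and E14.5 and 22.03 to 24.1 CPM at E16.5. It differed by 0.04 ± 0.07 between kinds of library (edgeR adjusted p = 0.721). Il34, its second ligand, stayed under 1 CPM in every library. Of 11 genes for CSF1 receptor ligands and macrophage transcription factors, 4 rose from E9.5 to E10.5 (10.6% of all genes), 7 from E10.5 to E12.5 (20.0%), 2 from E12.5 to E14.5 (6.29%) and 2 from E14.5 to E16.5 (10.1%), and none fell. Irf8, a transcription factor of the monocyte and macrophage lineage, rose by 1.26 ± 0.18 from E10.5 to E12.5 and by 0.63 ± 0.18 from E14.5 to E16.5 (adjusted p = 1.72e-05 and 0.0211, edgeR), reaching 15.3 to 18.99 CPM. Klf4, Irf8 and Maf had the smallest p of the list from E10.5 to E12.5, Klf4 with a rise of 0.97 ± 0.09 and Maf with 0.69 ± 0.11. Of the 11, 6 were higher in Chil3-positive libraries (11.6% of all genes), led by Cebpb (1.88 ± 0.14) and Spi1 (1.59 ± 0.16), the gene of PU.1.

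C1q works with proteases and regulators of the complement cascade, and 7 of 11 such genes rose from E10.5 to E12.5, where 20.0% of all genes rose. Among them were Serping1, the C1 inhibitor (1.09 ± 0.08), and C5ar1, the C5a receptor (2.72 ± 0.39). From E14.5 to E16.5, when no C1q gene was called, 5 of 11 rose (10.1% of all genes), led by the C1 proteases C1s1 (2.93 ± 0.41, from 0.246 to 1.89 CPM) and C1ra (2.17 ± 0.50, from 0.412 to 1.85 CPM) and by Serping1 (0.40 ± 0.08). Genes as low as these proteases at E14.5 could enter the tests through their E16.5 counts, as Cd163 did. The count of 5 is therefore a description only. Between kinds of library, C3ar1, Cfp, C3 and C1ra were higher in Chil3-positive libraries (11.6% of all genes) and Cd93 was lower.

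Genes of scavenging and haem iron handling, the pathway of Cd163, were tested as 11 of a list of 12. From E14.5 to E16.5 Hp and Scarb1 rose, and Hmox1, the haem-degrading enzyme (-0.92 ± 0.20), and Slc40a1, the iron exporter (-0.42 ± 0.13), fell. Of all genes 10.1% rose and 8.74% fell, and counts this small cannot be set apart from those shares. The list summed to 1716 CPM in the Chil3-positive E9.5 library against 1441 to 1564 CPM in Chil3-negative ones. The sums were 1871 to 1975 against 1349 to 1434 CPM at E10.5 and 2866 to 3723 against 1952 CPM at E12.5. These sums were not tested. In efferocytosis, the uptake of dying cells, 5 of 9 genes rose (20.0% of all genes) and 1 fell from E10.5 to E12.5, led by Gas6, a bridging ligand of the TAM receptors (1.90 ± 0.10). Between kinds of library 0 of the 9 were called by edgeR, and 0 had an unadjusted p under 0.05, with a median of -0.04. Cx3cl1, the ligand of Cx3cr1, rose by 0.48 ± 0.10 from E10.5 to E12.5 (edgeR adjusted p = 0.000888).

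Other tissue macrophage genes, a list of 20, were mostly higher in Chil3-positive libraries, as Adgre1 was. In Chil3-positive libraries 14 were higher (11.6% of all genes), with a median of 2.18 (all genes -0.01), and none was lower. Cd68, Fcer1g and Laptm5 had the smallest p and differed by 2.07 ± 0.13, 2.35 ± 0.22 and 0.82 ± 0.09. Ctss, the most abundant, differed by 5.49 ± 0.63. Folr2, Lyve1, Hpgds and Gpr34 were among the 6 not called. In the Chil3-negative libraries 15 of 18 rose from E10.5 to the 1 library of E12.5 (17.0% of all genes), against 6 of 20 in the Chil3-positive ones (15.0%), and the difference between these counts was not tested. From E14.5 to E16.5 Lyve1, carried by lymphatic endothelium as well as by macrophages, rose by 1.62 ± 0.17 (edgeR adjusted p = 2.65e-06).

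Markers of other cell types were read beside these results. The 8 genes of the activated macrophage and dendritic list, Chil3 and Mmp12 among them, summed to 346 to 664 CPM in Chil3-positive libraries and 0.584 to 2.75 CPM in Chil3-negative ones, where Chil3 and Mmp12 were at 0. Of the 8, 0 were called by edgeR in any of the 5 stage comparisons, and 0 had an unadjusted p under 0.05. Those tests could not decide whether these genes change with stage, because their spread includes E9.5, E10.5 and E12.5, which mix both kinds of library. In Chil3-negative libraries the list summed to 0.584 and 0.863 CPM at E9.5, 0.597 and 0.794 CPM at E10.5 and 2.75 CPM in the 1 library of E12.5. Of the alveolar list 5 of 9 were tested and 1 was higher in Chil3-positive libraries, Ear2, and the list summed to 7.002 to 23.2 CPM there and 6.55 to 33.9 CPM in Chil3-negative libraries, where Ear1, Ear2 and Fabp1 were at 0. Of the microglia list 5 of 6 were tested, none was higher and Sall1 was lower, at 63.8 to 128 CPM against 72.3 to 125 CPM in sum. P2ry12, a receptor of microglia and of yolk sac-derived macrophages, rose by 2.71 ± 0.31 from E10.5 to E12.5 and fell by 1.30 ± 0.30 to E16.5 (adjusted p = 1.29e-06 and 0.00478, edgeR), the same directions as Cx3cr1. Monocyte genes summed to 2.35 to 10.1 CPM in Chil3-negative libraries, where Ly6c2 was at 0, with 1 of 4 tested higher (Ms4a4c). Of 7 dendritic and MHC class II genes tested 3 were higher (H2-Ab1, H2-Eb1 and H2-DMa), at 32.0 to 61.4 CPM against 27.3 to 38.6 CPM in sum. Over all genes tested 11.6% were higher in Chil3-positive libraries, and the 1 call of the alveolar and of the monocyte list cannot be set apart from that share. The part of any of these cell types in the levels of the 9 genes was not tested.

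At the step where Cd163 counts increased, from E14.5 to E16.5, 4 of the 5 neutrophil genes tested rose (10.1% of all genes). Among them were Ngp (2.55 ± 0.53) and S100a8 (2.22 ± 0.56), from a list of 8. Of the 5 mast cell genes tested, Tpsb2 (4.25 ± 0.46) and Cma1 (2.70 ± 0.32) rose and Kit fell. At E14.5 Ngp, S100a8, Tpsb2 and Cma1 had means of 0.304, 0.377, 0.345 and 0.641 CPM. Genes this low could enter the tests through their E16.5 counts, as Cd163 did, so these counts are a description only. Cma1 (4.82 ± 0.50), Tpsb2 (3.27 ± 0.66), Cpa3 (2.30 ± 0.35) and Kit (0.39 ± 0.10) had already risen from E12.5 to E14.5. Mcpt4 was not called at that step, where 6.29% of all genes rose. At E12.5 Cma1 and Tpsb2 had means of 0.019 and 0.029 CPM, below what a count of 3 stood for in any library. Their log2 changes at that step set no bound. Between kinds of library 0 of the neutrophil, mast cell and lymphocyte genes tested were called by edgeR, and 0 had an unadjusted p under 0.05. Of the 8 megakaryocyte genes, Pf4 and Gp1bb were higher in Chil3-positive libraries, where 11.6% of all genes were higher. Cardiomyocyte genes summed to 21140 to 38320 CPM over the libraries and endothelial genes to 658 to 991 CPM, so both defining cell types of the labelled tissue were present in each library.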

How the data were processed

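Raw gene counts, as deposited by the authors, were read for all 18 libraries. STAR 2.5.2b, Trimmomatic 0.36, Subread 1.5.2, featureCounts and the builds mm10 and GRCm38 are named in the submitters' processing notes. The sources used here give neither their order, nor a strand setting, nor an annotation release. Identifiers lacking a symbol (0.0238% to 0.0388% of a library's counts) entered neither library sizes nor tests. Genes passing edgeR's filterByExpr (minimum count 10) were fitted with edgeR 4.0.16 in R 4.3.3 (TMM, glmQLFit and glmQLFTest, stage as the only term, and stage plus side for the split at 10 CPM of Chil3 plus Mmp12), with Benjamini-Hochberg adjustment over all genes. The fit was tested on simulated data. Log2 CPM for correlations used a prior count of 2. Alternatives used DESeq2 1.42.0, limma 3.58.1, other scalings and filters, and subsets of libraries. The 9 genes are described in every comparison; of each other list, examples were taken from the 3 genes with the highest mean CPM or smallest p, with further genes named to account for small counts. The genes, lists and tests were chosen with earlier results of these data known. One gene of the complement list that this rule names is not reported here.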

Additional observations from a re-analysis of the deposited data

Results flagged for a closer look

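Within a stage of 4 libraries, the gap of the farthest library exceeded Dixon's 95% limit for 2 of the genes. C1qb reached 23.4 CPM in replicate 1 of E16.5, against 14.7 to 15.6 CPM in the other 3. C1qc reached 9.19 CPM in replicate 1 of E12.5, against 7.76 to 7.79 CPM in the others. Chance gives such a gap in about 1 of 20 groups.

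The log2 difference between Chil3-positive and Chil3-negative libraries varied with stage for 4 genes. From E9.5 to E12.5 it changed by -2.137 for Csf1r, -4.694 for C1qb, -4.252 for C1qc and -10.07 for Adgre1. From E10.5 to E12.5 it changed by -2.003 for C1qb and -2.719 for Adgre1, and from E9.5 to E10.5 by -7.354 for Adgre1. The 2 Adgre1 values that involve E9.5 are fitted against 0 counts in Chil3-negative libraries and set no bound.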

How the results depend on the processing

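Over all results and alternatives, 1413 values kept direction and side of the threshold, 43 lost a call, 41 gained one and 16 turned sign. Called counts that differed by more than 1.5 times were: E9.5 to E10.5, 7 with Chil3-negative libraries only; E12.5 to E14.5, 6 with limma-voom, 5 with only those stages and 6 with Chil3-positive libraries only; E14.5 to E16.5, 1 with a filter of 10 CPM in 3 libraries, 4 with only those stages and 4 with Chil3-positive libraries only; between kinds of library, 2 with only the shared stages, while limma-voom gave 4 there. Leaving out each library gave 2 to 7, 6 to 7, 1 to 1, 1 to 2 and 7 to 9 calls for the stage comparisons in order, and 2 to 7 for the split. Cd163 is included in these counts and in those just listed wherever it was tested. Since only its E16.5 counts put it among the genes tested, its calls at E16.5 say nothing about robustness. Leaving out replicate 1 of E9.5 gave the 7 calls from E9.5 to E10.5 and the 9 from E9.5 to E16.5. It left Chil3-negative libraries only at E9.5. The filter of 10 CPM in 3 libraries left Cd163 untested, which accounts for the 1 call from E14.5 to E16.5 there. Uncalled changes turned sign as follows. Mrc1 from E9.5 to E10.5 was -0.40 with Chil3-negative libraries, and leaving out each library gave -0.27 to 1.02; Adgre1 there gave -0.020 to 10.13, the last against 0 counts and no bound. Leaving out each library gave -0.11 to 1.65 for Cd163 from E10.5 to E12.5, -0.28 to 0.050 for C1qb and -0.088 to 0.099 for C1qc from E14.5 to E16.5. With the split as a term, Mrc1 was -0.043 and Adgre1 -0.0023 from E12.5 to E14.5. C1qc from E14.5 to E16.5 was 0.012 with RLE and with DESeq2, 0.0052 without a filter and 0.0055 with limma-voom. Leaving out each library gave -0.15 to 0.016 for Cx3cr1 between kinds of library. The cause was not tested.

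Deviations of same-numbered libraries correlated at -0.779 to 0.665, with 8 of 33 pairs over 0.1. The lowest value joined a Chil3-positive and a Chil3-negative library (replicate 1 of E9.5 and of E10.5). The highest joined Chil3-negative libraries (replicate 2 of the same stages). The check therefore cannot show or exclude a pairing by replicate number apart from the kind of library. With the replicate block, calls numbered 2, 6, 1, 2 and 8 for the stages, Cd163 included, and 6 for the split. Scaling by library totals alone moved the median of all genes by -0.15 from E14.5 to E16.5, and turned 1911 higher and 1651 lower genes there into 1222 and 3776, and 1187 and 1616 from E12.5 to E14.5 into 1701 and 1020. DESeq2 gave an adjusted p for 8 of the 9 genes in every stage comparison. C1qb was the gene without one from E10.5 to E12.5 and from E9.5 to E16.5. Members with few counts (Cd163, and C1q and Adgre1 in Chil3-negative E9.5 libraries) are limited by depth.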
